A study of Mus musculus with 8 samples.

Results

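The genes described here are 9 transcription factors of the microglial lineage, Sall1, Sall3, Spi1, Mef2a, Mef2c, Runx1, Ikzf1, Zeb2 and Tal1. Their chromatin accessibility was read from every ATAC-seq peak whose nearest transcription start site, in the deposited annotation, belonged to one of them, which gave 451 of the 104981 peaks and 9 of the 18207 genes in the table. Assignment to a gene is by distance and is not evidence that a peak regulates it. ATAC-seq uses a transposase that inserts sequencing adapters into open chromatin, so the tags counted in a peak measure how accessible that stretch of DNA was. The microglia came from the cortex of mice at postnatal day 30, were separated on a Percoll gradient and were collected by flow cytometry. One group had received interleukin-33 (IL-33) and the other vehicle, each by a single-sided injection into a cerebral ventricle 4 hours before collection. There were 4 libraries per group, each from its own mouse per the sample titles, and both groups held female and male mice. The columns of the table name the group and not the mouse, so the sexes could not be separated. Strain and genotype are not given in the sources used here, and the injection itself is common to both groups.

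PU.1, the protein made from Spi1, is an ETS-family factor that binds macrophage enhancers and is needed for microglia to form. RUNX1, the zinc finger protein IKAROS (from Ikzf1) and the basic helix-loop-helix factor TAL1 act in blood formation, and RUNX1 also acts in the embryonic precursors of microglia. Among brain macrophages, SALL1 is a zinc finger repressor largely restricted to microglia and needed for their resting state. MEF2 factors and ZEB2 also act in the gene programme of tissue-resident macrophages.

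Library totals ran from 35842688 to 43857673 tags, and a level of 3 reads corresponded to 0.342 to 0.418 scaled tags. The share of tags that fell in peaks was 29.86, 14.2, 21.99 and 31.27% in the 4 IL-33 libraries, against 26.46, 27.94, 20.82 and 26.45% in the 4 vehicle libraries. IL-33 library 2 therefore lay low in nearly every sum below. Values are tags per peak scaled by the authors to 10000000 per library, and log2 changes are of log2(tags + 1.155), which understates the change of weak peaks. Values were tested as deposited, and results after median-ratio scaling, which divides each library by its own typical peak level, are given beside them where the call of a named peak or gene differs. In a bulk library made from many sorted cells, fewer cells of a type and less signal per cell cannot be told apart. Promoter peaks of 9 of 10 microglia marker genes summed to 325 to 729.1 tags in IL-33 libraries, against 563 to 797.3 in vehicle libraries. Summed over all its peaks, the microglia marker Siglech was lower, with 275.9 ± 99.9 tags in IL-33 libraries and 573.9 ± 59.3 in vehicle libraries (limma adjusted p = 0.00498). Gpr34 had 247.4 ± 103.3 tags in IL-33 libraries and 430.7 ± 58.8 in vehicle libraries (limma adjusted p = 0.0565). After median-ratio scaling, Gpr34 (log2 change -0.78, limma adjusted p = 0.000205) and Tmem119 (-0.36, 0.0119) were called lower as well. Cx3cr1 (0.31, 0.0389) and Olfml3 (0.28, 0.00647) were called higher after that scaling. The other microglia markers were not called either way. Border macrophage and monocyte promoters, with peaks at 3 of 8 genes, summed to 33.8 to 101.3 tags in IL-33 libraries and 58.7 to 93 in vehicle libraries. Endothelial promoters, at 3 of 4 genes, summed to 37.2 to 84.4 tags in IL-33 libraries and 81.5 to 112.6 in vehicle libraries. The endothelial marker Cldn5, which had no promoter peak, went the other way in summed tags, with 64.9 ± 24.6 in IL-33 libraries and 26.2 ± 5.01 in vehicle libraries (limma adjusted p = 0.0058). Flt1 had 273.4 ± 85.9 tags in IL-33 libraries and 155.2 ± 9.75 in vehicle libraries (limma adjusted p = 0.169). After median-ratio scaling Flt1 (log2 change 0.84, limma adjusted p = 5.24e-05) and Pecam1 (0.53, 0.00223) were called higher. The endothelial marker Kdr was called lower after that scaling (-0.46, 0.00447). Of the other markers tested as summed tags, the neuron marker Syt1 was also called as deposited, with 56.3 ± 32.4 tags in IL-33 libraries and 104.1 ± 19.5 in vehicle libraries (limma adjusted p = 0.0218). After median-ratio scaling, limma also called lower Snap25 (log2 change -0.67), Gfap (-0.48), Aqp4 (-0.52) and Slc1a3 (-0.32). Mog (-0.36), Pf4 (-0.6), Lyve1 (-0.71) and Lck (-0.55) were called lower as well, and Mbp was called higher (0.28). Over all genes, 27.4% were called in either direction after that scaling. Neutrophil promoters, at 2 of 4 genes, summed to 42 to 88.7 tags in IL-33 libraries and 59.5 to 89.6 in vehicle libraries. Oligodendrocyte promoters, at 4 of 7 genes, summed to 31.5 to 61.4 tags in IL-33 libraries and 38.6 to 50.7 in vehicle libraries. Astrocyte promoters, at 3 of 6 genes, summed to 11.1 to 44.9 tags in IL-33 libraries and 24 to 39.3 in vehicle libraries. Promoter peaks of neuron markers (1 of 6 genes) stayed at or below 16.7 tags and those of T cell markers (1 of 4 genes) at or below 6.97 tags in every library. Genes with no promoter peak in the table included Csf1r among microglia markers, S100a9 and Ly6g among neutrophil markers, Ms4a7, Ccr2 and Ly6c2 among macrophage and monocyte markers, and Cd3e and Cd3g among T cell markers. What part other cells have in the results was not tested.

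Around these 9 genes, single distal peaks gained or lost accessibility with IL-33, most of them weak peaks that gained, and all but 1 of the called peaks were distal, as were 365 of the 387 tested. Of the 451 peaks, 387 passed the filter on low values and 64 did not. Of those tested, 46 rose with IL-33 (11.9%, against 8.53% of all peaks tested) and 14 fell (3.62%, against 4.99%), by limma with Benjamini-Hochberg adjustment over all 94480 peaks. The raised peaks were spread over all 9 genes and the lowered ones over 7, with none at Ikzf1 or Tal1. All 22 promoter peaks were tested, and 0 rose and 1 fell, at Sall3, against 3.73% of all promoter peaks called in either direction. The 365 distal peaks tested held the other 59 calls. The median log2 change of the member peaks was 0.04, beside -0.14 over all peaks tested. In 66 of the 387 peaks the 4 libraries of one group all lay on one side of the other group, 50 with IL-33 above and 16 below, against 13.9% of all peaks tested. Raised peaks were mostly weak in vehicle, with a median of 11.6 tags in IL-33 libraries and 3.46 in vehicle libraries, and 35 of them stood only in the list of peaks the authors had called in IL-33 samples. Such a peak entered the table because it was high in that group. The largest rises of Sall1, Sall3, Spi1, Mef2c, Ikzf1 and Tal1 were such peaks. Likewise, 7 of the 14 lowered peaks stood only in the vehicle list. Among them were the largest falls of Spi1, Mef2a, Mef2c, Runx1 and Zeb2. For peaks of only 1 list, the p-value and the separation of groups are not independent of how the peak was listed. Median-ratio scaling gave 101 raised and 36 lowered member peaks, against backgrounds of 15.3% raised and 10.7% lowered, with 44 and 13 shared with the calls above. Among the promoter peaks, that scaling gave 1 raised, at Runx1, and 3 lowered, at Runx1 and Sall3. In the counts of member peaks called raised and member peaks called lowered, leaving out IL-33 library 2 gave 84 raised. Over all peaks the raised count went from 8058 to 13641 in that fit. Leaving out IL-33 library 3 gave 7 lowered and leaving out IL-33 library 4 gave 26, where the lowered count over all peaks went from 4714 to 2546 and 8017. The lowered count was 9 when vehicle library 1 or 4 was dropped (2463 and 2697 over all peaks), and 6 when vehicle library 2 was (2441 over all peaks).

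**Figure D1:**
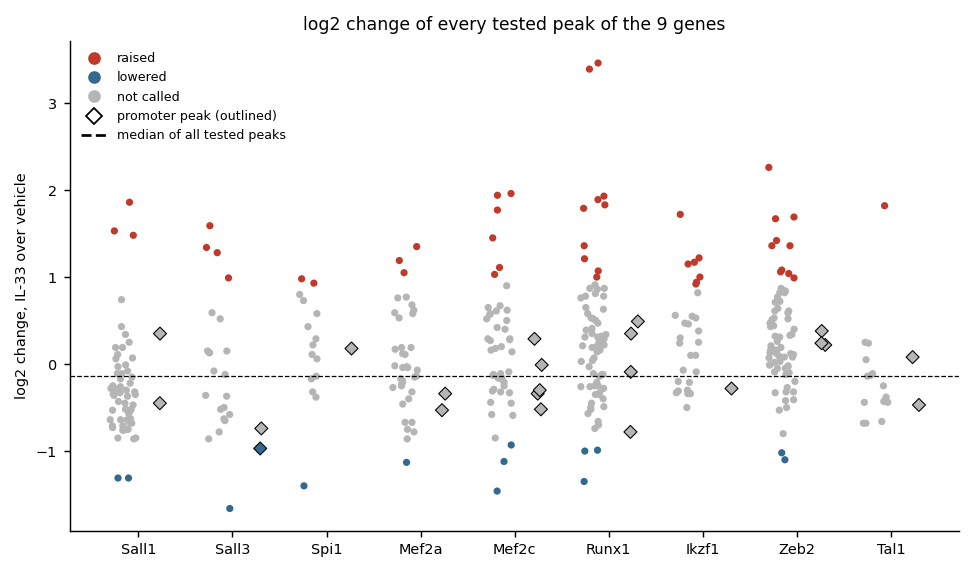
Log2 change of each tested peak (IL-33 over vehicle) by gene, with promoter and distal peaks and the called ones marked. The largest rises, 3.46 and 3.39, are at Runx1, and the promoter peaks lie between -0.97 and 0.49.

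Sall1 had 69 peaks, of which 61 were tested, and 3 rose and 2 fell. The largest rise, at -362.0 kb (negative distances lie upstream of the start), was an intergenic peak at chr8:89406079-89406346, mm10. It held 16.32, 6.01, 7.77 and 13.06 tags in IL-33 libraries, against 3.33, 3.43, 2.74 and 0 in vehicle libraries, and the groups did not overlap (log2 change 1.86, SE 0.34, limma adjusted p = 1.62e-06). A neighbour at -365.0 kb rose as well, to 25.1 ± 8.99 tags in IL-33 libraries, against 7.88 ± 2.94 in vehicle libraries (SD, n = 4 each). Both falls had the same log2 change of -1.31. The largest fall peak of Sall1, at -311.6 kb, held 9.82, 4.13, 2.17 and 9.76 tags in IL-33 libraries, against 16.37, 20.34, 12.65 and 13.95 in vehicle libraries, and lost its limma call without IL-33 library 3 (-0.96, adjusted p = 0.1). At -119.1 kb the peak held 24.99, 6.37, 12.99 and 27.89 tags in IL-33 libraries, against 42.98, 45.97, 32.83 and 41.57 in vehicle libraries. The peaks over the start itself were not called: the promoter peak averaged 38.1 ± 12.8 tags in IL-33 libraries and 52.7 ± 16.3 in vehicle libraries. The strongest peak of the gene, in the first intron at 1.3 kb, averaged 138.0 ± 39.3 tags in IL-33 libraries and 171.9 ± 16.5 in vehicle libraries (log2 change -0.36, adjusted p = 0.599).

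Sall3, a related zinc finger gene, held the only promoter peak that was called. At -0.8 kb it had 63.1, 19.22, 39.23 and 69.47 tags in IL-33 libraries, against 98.88, 95.91, 61.22 and 88.58 in vehicle libraries. The groups overlapped, since IL-33 libraries 1 and 4 were above vehicle library 3 (log2 change -0.97, limma adjusted p = 0.0349). The strongest promoter peak of Sall3 lost its call without IL-33 library 2 (-0.60, adjusted p = 0.138) or 3 (-0.92, 0.121), and without vehicle library 1 (-0.89, 0.144), 2 (-0.91, 0.129) or 4 (-0.94, 0.105), by the same test. An intergenic peak at -27.7 kb had the largest fall of all member peaks, with 28.17, 6.84, 14.65 and 24.59 tags in IL-33 libraries, against 62.04, 65.39, 42.87 and 50.08 in vehicle libraries. The groups were separate there (log2 change -1.66, adjusted p = 2.68e-05). Upward, 4 weak peaks rose, led by one in the first intron at 5.6 kb with 9.62 ± 3.18 tags in IL-33 libraries and 2.44 ± 1.05 in vehicle libraries (log2 change 1.59).

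Spi1 had 2 raised peaks and 1 lowered of 16 tested. The lowered peak, at -12.3 kb and chr2:91084204-91084475, held 36.33, 19.45, 21.78 and 30.81 tags in IL-33 libraries. In vehicle libraries it held 83.91, 79.79, 56.55 and 68.35 tags, all above the IL-33 values (log2 change -1.40, limma adjusted p = 0.000632). A stronger peak beside it at -12.0 kb was not called, with 60.4 ± 16.5 tags in IL-33 libraries and 74.0 ± 9.72 in vehicle libraries (log2 change -0.32). The Spi1 promoter averaged 115.5 ± 29.7 tags in IL-33 libraries and 99.5 ± 13.7 in vehicle libraries (log2 change 0.18, adjusted p = 0.804). The 2 rises were of weak peaks whose groups overlapped, and neither was called after median-ratio scaling. The largest rise peak of Spi1, in an intron at 6.1 kb, held 2.29, 6.96, 9.94 and 5.32 tags in IL-33 libraries, against 0.51, 2.38, 2.62 and 4.74 in vehicle libraries (log2 change 0.98), and its limma call was lost without vehicle library 1 (adjusted p = 0.385), 2 (0.0754) or 3 (0.0503).

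Mef2a and Mef2c, which encode MADS-box factors, both had raised distal peaks. Mef2a had 3 raised peaks and 1 lowered of 39 tested. Its largest rise was of a strong intergenic peak at -78.7 kb, chr7:67451454-67451721, with 112.94, 55.29, 97.95 and 116.38 tags in IL-33 libraries, against 36.33, 45.18, 25.31 and 37.94 in vehicle libraries. Even IL-33 library 2 was above every vehicle library (log2 change 1.35, limma adjusted p = 0.00117), and the peak made up 8.35% of the gene's tags in IL-33 libraries and 2.99% in vehicle libraries. The strongest Mef2a distal peak, at -89.2 kb, averaged 121.8 ± 40.0 tags in IL-33 libraries and 138.3 ± 20.8 in vehicle libraries and was not called. The largest fall peak of Mef2a, at -130.7 kb, averaged 2.37 ± 0.792 tags in IL-33 libraries and 6.5 ± 1.32 in vehicle libraries (log2 change -1.13) and lost its limma call without IL-33 library 3 (adjusted p = 0.0704). At Mef2c, 6 peaks rose and all of them lay in introns of the gene. The largest rise, at chr13:83551568-83551863, held 22.82, 8.02, 14.27 and 19.9 tags in IL-33 libraries, against 3.71, 5.15, 1.94 and 2.09 in vehicle libraries (log2 change 1.96, adjusted p = 3e-07). The groups were separate at 5 of these 6 peaks. Of the 3 Mef2c peaks that fell, 2 were far upstream, at -391.5 and -372.4 kb. The strongest Mef2c promoter peak was not called and averaged 78.9 ± 34.6 tags in IL-33 libraries and 90.3 ± 14.5 in vehicle libraries (log2 change -0.30).

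Runx1 carried the largest changes of any member, with 10 peaks raised and 3 lowered of 73 tested. An intergenic peak at -258.4 kb, chr16:93084375-93084667, held 122.25, 48.22, 98.72 and 118.78 tags in IL-33 libraries, against 7.68, 13.08, 5.24 and 5.02 in vehicle libraries. Its means were 97 ± 34.1 tags with IL-33 and 7.76 ± 3.75 with vehicle, a mean ratio of 12.5 (log2 change 3.46, limma adjusted p = 1.07e-21). It was present in both peak lists and made up 5.92% of the gene's tags in IL-33 libraries and 0.549% in vehicle libraries. An intronic peak at 76.4 kb, chr16:92620757-92621015, held 35.31, 21.69, 24.71 and 50.96 tags in IL-33 libraries, against 3.07, 1.19, 1.71 and 2.09 in vehicle libraries (log2 change 3.39). The groups did not overlap at either peak. Of the lowered peaks, the one with the largest fall, in an intron at 18.1 kb, held 2.42, 2.83, 5.1 and 5.7 tags in IL-33 libraries, against 12.02, 12.02, 10.26 and 11.86 in vehicle libraries (log2 change -1.35).

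**Figure D2:**
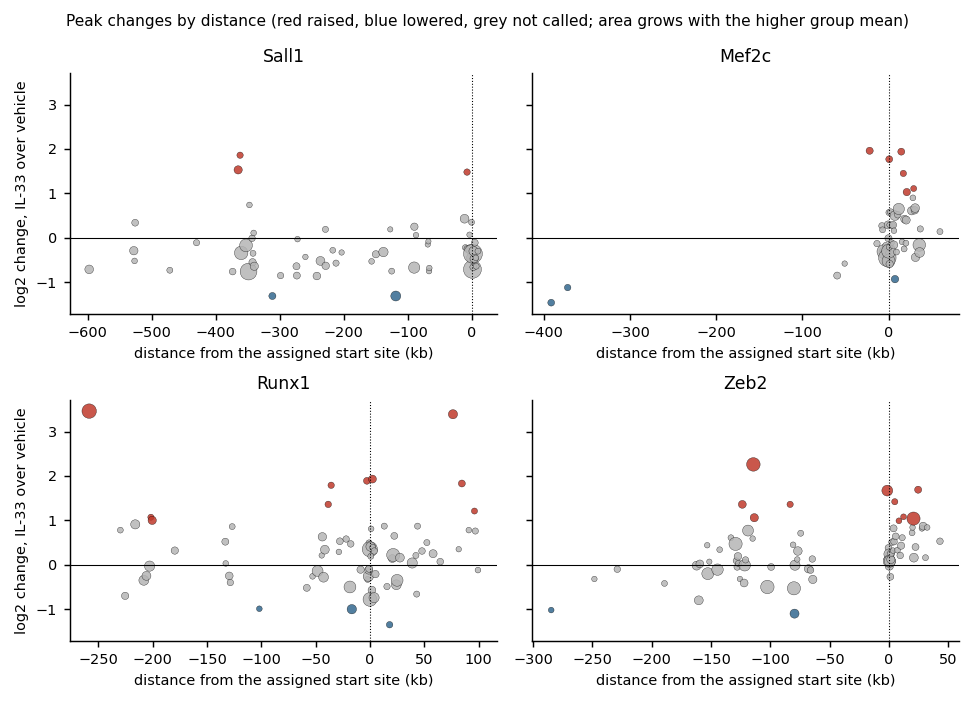
Log2 change of the tested peaks of Sall1, Mef2c, Runx1 and Zeb2 (IL-33 over vehicle) by distance from the start site in kb. The 3.46 rise of Runx1 lies at -258.4 kb, and the 2.26 rise of Zeb2 at -114.4 kb.

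Runx1 is read from 2 promoters, 128.6 kb apart, and their peaks were picked out after their values had been seen, so they are given without a test of their own. The downstream promoter peak, chr16:92697300-92697599, held 130.92, 67.2, 112.86 and 124.11 tags in IL-33 libraries, against 84.81, 94.06, 65.44 and 89.28 in vehicle libraries. The upstream promoter peak, chr16:92825892-92826221, held 64.38, 35.37, 44.33 and 58.06 tags in IL-33 libraries, against 99.78, 100.01, 61.56 and 87.05 in vehicle libraries. Neither peak was called across all peaks as deposited (log2 change 0.35 with limma adjusted p = 0.618, and -0.78 with adjusted p = 0.114). After median-ratio scaling both were called, with log2 changes of 0.45 (adjusted p = 0.0246) and -0.68 (adjusted p = 0.00598). Within each library, downstream over upstream tags were 2.03, 1.90, 2.55 and 2.14 in IL-33 libraries, against 0.85, 0.94, 1.06 and 1.03 in vehicle libraries, a ratio in which a library-wide factor cancels. Promoter sequences are shown for this pair because its 2 peaks differed in direction, and for Mef2a because its distal minus promoter difference was called (below). The sequences are RefSeq windows on GRCm38.p6, minus strand, from 250 bases before to 50 after the start. Capitals mark 2 matches to RUNX letters (TGTGGT, either strand) at the upstream Runx1 start and MEF2 letters (TANNNNTAG, either strand, 2 overlapping matches) at the Mef2a start.
Runx1 upstream, chr16:92826025-92826324: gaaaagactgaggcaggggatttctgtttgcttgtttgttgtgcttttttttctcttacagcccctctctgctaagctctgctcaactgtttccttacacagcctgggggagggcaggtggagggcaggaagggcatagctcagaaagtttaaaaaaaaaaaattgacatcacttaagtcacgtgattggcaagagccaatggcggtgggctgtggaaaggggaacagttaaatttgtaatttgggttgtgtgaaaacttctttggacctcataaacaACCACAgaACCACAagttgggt
Runx1 downstream, chr16:92697280-92697579: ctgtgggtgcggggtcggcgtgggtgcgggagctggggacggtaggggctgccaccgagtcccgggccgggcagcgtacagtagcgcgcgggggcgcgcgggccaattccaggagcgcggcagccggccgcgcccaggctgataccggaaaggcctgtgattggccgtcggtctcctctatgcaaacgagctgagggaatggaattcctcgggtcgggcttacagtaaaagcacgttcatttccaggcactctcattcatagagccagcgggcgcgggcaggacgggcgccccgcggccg
Mef2a, chr7:67372809-67373108: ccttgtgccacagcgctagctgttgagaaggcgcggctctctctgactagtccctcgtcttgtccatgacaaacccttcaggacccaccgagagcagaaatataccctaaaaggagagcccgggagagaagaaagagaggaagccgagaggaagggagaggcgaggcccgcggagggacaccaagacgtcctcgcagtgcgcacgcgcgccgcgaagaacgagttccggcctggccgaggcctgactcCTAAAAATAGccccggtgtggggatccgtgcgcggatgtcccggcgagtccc

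RUNX letters were in 1 of the 17 RefSeq windows of the 7 members with an entry, against 16.8% of all 32851 promoters, and MEF2 letters in 4 of 17, against 21%. The other motifs searched, each on both strands and each counted where it matched, overlapping or not, were AP-1 (TGANTCA, 2 of 17, against 7.8%), NF-kB (GGGANTTTC, 0 of 17, against 1.1%), PU.1 (GAGGAAGT, 0 of 17, against 3.2%), E-box (CAGCTG, 0 of 17, against 16.3%) and ISRE (GAAANNGAA, 0 of 17, against 8.6%). A match describes letters in a window and is not a site.

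**Figure D3:**
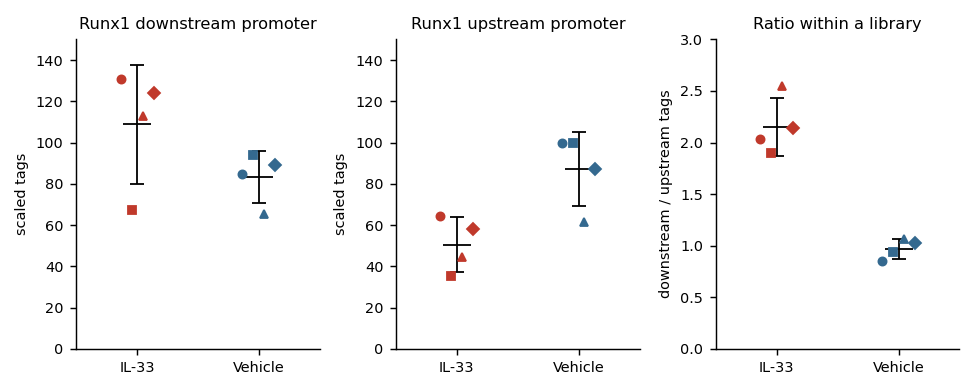
Tags at the downstream and upstream Runx1 promoter peaks in each library, and their ratio within each library, with mean and SD. The ratio averages 2.15 ± 0.28 in IL-33 libraries and 0.97 ± 0.09 in vehicle libraries (n = 4 each).

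Ikzf1 had 7 raised and 0 lowered peaks of 31 tested. All 7 stood only in the IL-33 peak list. The largest rise, at 54.4 kb in an intron, chr11:11744361-11744753, held 12.75, 10.96, 9.68 and 12.93 tags in IL-33 libraries, against 2.43, 3.83, 3.65 and 1.39 in vehicle libraries. The groups did not overlap (log2 change 1.72, limma adjusted p = 1.17e-05). Of the 7, 6 were in introns and the groups were separate at 4. The promoter peak averaged 42.4 ± 17.4 tags in IL-33 libraries and 48.4 ± 3.9 in vehicle libraries and was not called.

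Zeb2 also had 10 raised peaks, and 2 lowered, of 75 tested. The largest rise, at -114.4 kb and chr2:45231678-45232034, held 107.33, 42.21, 67.0 and 119.16 tags in IL-33 libraries, against 19.57, 15.06, 11.63 and 15.76 in vehicle libraries (log2 change 2.26, limma adjusted p = 1.74e-09). IL-33 library 2 was again lowest but stayed above all vehicle libraries. Raised neighbours lay at -113.6 and -123.7 kb, and the fall at -79.7 kb averaged 15.3 ± 6.48 tags in IL-33 libraries and 32.1 ± 3.33 in vehicle libraries. The largest fall peak of Zeb2, which this is, lost its limma call without vehicle library 2 (log2 change -1.04, adjusted p = 0.0635). Close to the gene, a peak at -1.5 kb, annotated at the end of Zeb2os, an antisense transcript, averaged 50.2 ± 18.2 tags in IL-33 libraries and 14.2 ± 1.8 in vehicle libraries (log2 change 1.67). The strongest Zeb2 promoter peak, which the table annotates to the start of Zeb2os, averaged 45.0 ± 13.2 tags in IL-33 libraries and 37.0 ± 6.02 in vehicle libraries and was not called.

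Tal1 had 1 raised peak and 0 lowered of 17. The raised peak, at -21.2 kb and chr4:115035130-115035370, is annotated to an intron of the neighbouring gene Stil and held 20.27, 6.25, 10.32 and 24.09 tags in IL-33 libraries. In vehicle libraries it held 2.43, 2.91, 3.08 and 3.63 tags, all below the IL-33 values (log2 change 1.82, limma adjusted p = 2.75e-06). Its strongest distal peak, at -3.7 kb, averaged 78.5 ± 32.3 tags in IL-33 libraries and 116.5 ± 18.5 in vehicle libraries (log2 change -0.66, adjusted p = 0.214). The strongest distal peak of Tal1 was called lower by limma after median-ratio scaling (-0.56, adjusted p = 0.0143) and quantile normalization (adjusted p = 0.0252), and by edgeR with TMM (adjusted p = 5.29e-05).

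Summed over all its peaks, none of the 9 genes was called as deposited, against 2.7% of the 16386 genes tested (log2(sum + 5), limma). Log2 changes ran from -0.40 at Sall1 to 0.25 at Zeb2, each with an SE of 0.28, and adjusted p-values from 0.789 to 0.972; 1622 of all genes had an unadjusted p under 0.05. The Zeb2 sum was 2017.41, 966.29, 1509.57 and 2248.19 tags in IL-33 libraries, against 1465.4, 1544.74, 1099.89 and 1312.26 in vehicle libraries. The groups overlapped at every member, and IL-33 library 2 had the lowest sum of all 8 libraries at each. After median-ratio scaling, 6 of 9 were called, against 27.4% of all genes, and the same 6 had separate groups, against 32% of all genes. Zeb2 then had 1646.2, 1612.7, 1662.4 and 1734.9 tags in IL-33 libraries, against 1356.5, 1350.4, 1275.6 and 1208.3 in vehicle libraries (log2 change 0.36, limma adjusted p = 0.00263). Runx1 (0.29, adjusted p = 0.0206) and Ikzf1 (0.21, adjusted p = 0.0266) were also higher. Sall1 had 1208.5, 1085.9, 1199 and 1091.1 tags in IL-33 libraries, against 1470.6, 1471.8, 1328.5 and 1366 in vehicle libraries (-0.30, adjusted p = 0.0104). Sall3 (-0.29, adjusted p = 0.0185) and Tal1 (-0.27, adjusted p = 0.0336) were also lower. The scaled log2 changes of Spi1, Mef2a and Mef2c were 0.15, 0 and 0.07.

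**Figure D4:**
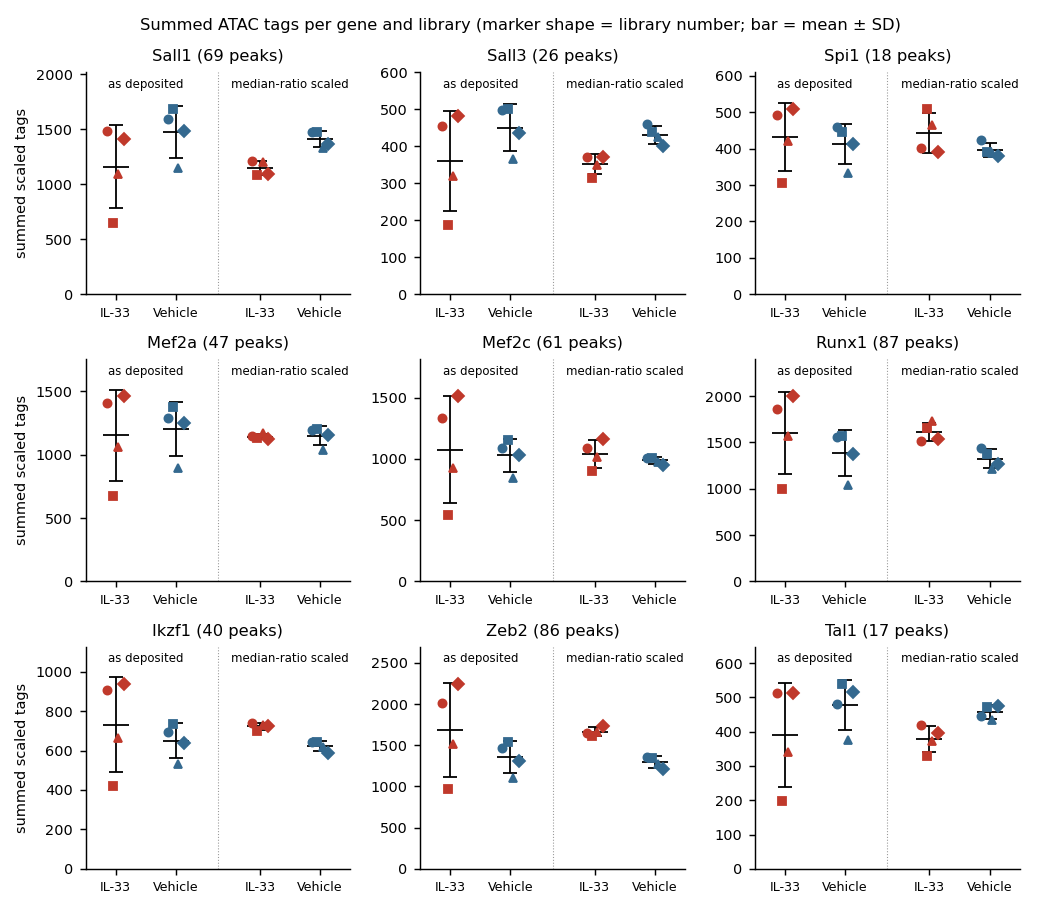
Summed scaled tags of each gene in each library, as deposited and after median-ratio scaling, IL-33 left of vehicle, with mean and SD. The scaled Zeb2 sums are 1664 ± 51.6 in IL-33 libraries and 1297.7 ± 70 in vehicle libraries (n = 4 each).

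Whether distal peaks of a gene moved apart from its promoters was tested as log2(distal sum + 5) minus log2(promoter sum + 5) within each library, from which a library-wide factor largely cancels. Of the 9 genes, 4 were called, all with a higher difference in IL-33 libraries, against 29.5% of the 9308 genes tested. Sall3 had differences of 2.13, 2.5, 2.24 and 2.04 in IL-33 libraries, against 1.55, 1.6, 1.78 and 1.51 in vehicle libraries, so that the groups were separate (change 0.62, limma adjusted p = 0.00365). Mef2a (0.41, adjusted p = 0.0319), Ikzf1 (0.38, adjusted p = 0.0438) and Runx1 (0.31, adjusted p = 0.0404) followed. A higher difference was not always a distal gain. Sall3 promoters summed to 62.4 ± 30 tags with IL-33 and 109 ± 20.4 with vehicle, its distal peaks to 297.9 ± 105.6 and 340.8 ± 43.8. In that order, Mef2a promoters summed to 132.9 ± 30.4 and 184.3 ± 36.2, its distal peaks to 1018.9 ± 333.3 and 1020.2 ± 176.9. Ikzf1 promoters summed to 42.4 ± 17.4 and 48.4 ± 3.9, its distal peaks to 689.4 ± 227.2 and 601.9 ± 85.3. Runx1 promoters summed to 185 ± 46.2 and 193.8 ± 32.8, its distal peaks to 1420.1 ± 399.3 and 1191.6 ± 211.5. The groups overlapped in each of these promoter and distal sums, which were not tested by themselves. In the difference, groups were separate at 4 genes, Sall3, Mef2a, Mef2c and Runx1, against 30.6% of all genes. The Mef2c difference was 0.31 with a limma adjusted p of 0.052. The distal minus promoter of Mef2c passed the threshold with median-ratio scaling (adjusted p = 0.0476), pseudocount 20 (0.045), a limma trend (0.0436) and peaks within 100 kb (0.0361). By the same test, the distal minus promoter of Runx1 was no longer called with peaks within 100 kb (0.21, adjusted p = 0.141), with promoters within 1 kb (0.23, 0.137) or without the lowest-share library of each group (0.34, 0.0717). The distal minus promoter of Ikzf1 lost its call with pseudocount 20 (adjusted p = 0.0799), a limma trend (0.0549) and without those libraries (0.106). Differences of Sall1 (-0.10), Spi1 (-0.18), Tal1 (-0.17) and Zeb2 (0) were not called. The median over the 9 was 0.31, beside 0.13 over all genes tested. Sall3 was called in every leave-one-out fit, but without IL-33 library 3 or 4 or vehicle library 2, 3 or 4 it was the only one called.

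**Figure D5:**
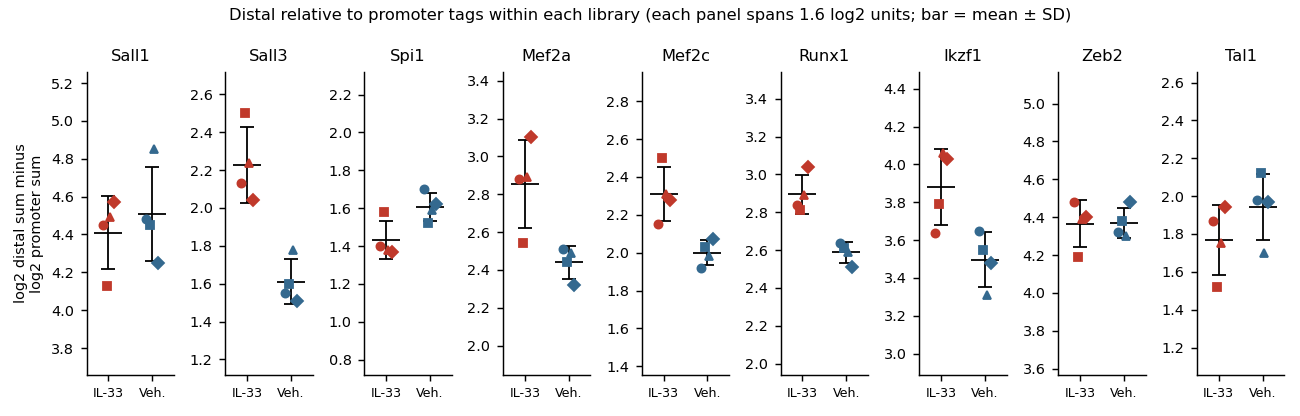
Difference between log2 distal and log2 promoter sums of each gene in each library, IL-33 left of vehicle, with mean and SD. Sall3 averages 2.23 ± 0.2 in IL-33 libraries and 1.61 ± 0.12 in vehicle libraries (n = 4 each).

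Per kb of peak, the mean level in IL-33 libraries was highest at Mef2a (87.9 tags per kb), then Spi1 (79), Tal1 (71.9), Mef2c (63.2), Runx1 (61.6), Zeb2 (59.3), Ikzf1 (55.7), Sall1 (52) and Sall3 (42.4). In vehicle libraries it was highest at Mef2a (92 tags per kb), then Tal1 (88.1), Spi1 (75.5), Sall1 (66.3), Mef2c (60.5), Runx1 (53.2), Sall3 (52.9), Ikzf1 (49.5) and Zeb2 (47.7). Zeb2 thus stood last in vehicle libraries and ahead of Ikzf1, Sall1 and Sall3 in IL-33 libraries, although none of these levels was called between groups as deposited.

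Of 15 paralogues of the members, 12 had peaks and 9 were tested as summed tags, with 0 called and a median log2 change of -0.07, beside -0.17 over all genes. As deposited, 2.7% of all genes were called. After median-ratio scaling, 1 paralogue was raised and 1 lowered, against 27.4% of all genes called in either direction. The 120 tested peaks of the paralogues included 15 raised (12.5%, against 8.53% of all peaks) and 10 lowered (8.33%, against 4.99%). Lyl1, a relative of Tal1, had the smallest p, with 476.1 ± 103.4 tags in IL-33 libraries and 831.2 ± 108.8 in vehicle libraries (log2 change -0.81, limma adjusted p = 0.101, and -0.71 with 0.000543 after median-ratio scaling). Zeb1, the relative of Zeb2, had 758.5 ± 265.4 tags in IL-33 libraries and 536.9 ± 59 in vehicle libraries (log2 change 0.43, limma adjusted p = 0.743, and 0.53 with 0.000224 after that scaling). Among 25 other macrophage factors and partners, all tested, 0 were called as deposited, with a median of -0.14. After median-ratio scaling, 4 of these 25 were raised and 2 lowered, against 27.4% of all genes called in either direction. At single peaks, 49 of their 541 tested peaks rose (9.06%, against 8.53% of all peaks) and 23 fell (4.25%, against 4.99%), near the shares over all peaks. Hdac7, a histone deacetylase that binds MEF2 factors, had 145.2 ± 48.3 tags in IL-33 libraries and 89.5 ± 15.6 in vehicle libraries (log2 change 0.62, limma adjusted p = 0.36, and 0.72 with 0.000699 after median-ratio scaling).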

How the data were processed

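ATAC-seq tags were analysed in 4 IL-33 and 4 vehicle libraries. The deposited values are a signal: per the file headers, the authors counted tags over each peak of a reproducible peak list with HOMER on mm10, keeping up to 3 tags at one position, and scaled them to 10000000 per library. The submitters' processing notes also name Bowtie2 and DESeq2. Trimming, duplicate removal, any transposase shift and tool versions are not given in the sources used here. Values were whole multiples of 1 read within 0.006 tags (100% in each library), so reads were recovered for edgeR 4.0.16 as an alternative.

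Computed here: log2(tags + 1.155), with a pseudocount set at 10% of the middle peak mean; the lowest 10% of means left out (10501 peaks, 94480 tested). Groups were tested with limma 3.58.1 under R 4.3.3 (moderated by empirical Bayes, two-sided, Benjamini-Hochberg over the whole table, threshold 0.05), for peaks, for gene sums as log2(sum + 5), and for distal minus promoter sums of genes whose mean sums both reached 5 tags. Promoter is the deposited promoter-TSS class and distal every other peak, so distal includes some peaks within 0.3 kb of a start. limma gave all peaks one common spread, so very small p-values are not literal. The gene sums named here likewise all had the same SE, 0.28. The p-values of peaks and gene sums thus measure a spread between libraries pooled over the table, not that of each peak or gene. For distal minus promoter differences the SE varied between genes. Floors cover counting error only. Scripts were tested on simulated data. A total of 0 other value columns was left aside.

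The members, lists and tests were chosen with earlier results of these data known. Named peaks per gene are the strongest promoter peak, the strongest distal peak, and the largest rise and fall among called peaks. Up to 3 genes per list are named, smallest p first, and the gene most alike in scaled sums for each member. Other called peaks, and the Runx1 promoter pair, were chosen after their values were seen. Alternatives were median-ratio and quantile scaling, other pseudocounts and filters, limma with a trend, peaks within 100 kb, promoters within 1 kb, edgeR, and leaving out each library. Leaving out the lowest-share library of each group was added after seeing the data.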

Additional observations from a re-analysis of the deposited data

Results flagged for a closer look

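In 104 groups of 4 libraries, 2 held a library far from the other 3 by Dixon's criterion (1.9%), where chance gives about 1 in 20. The distal minus promoter difference of Spi1 was 1.58 in IL-33 library 2, against 1.37 to 1.4 in the other IL-33 libraries. The Runx1 peak with the largest fall held 10.26 tags in vehicle library 3, against 11.86 to 12.02 in the other vehicle libraries.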

How the results depend on the processing

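The raised member peaks numbered 101 with median-ratio scaling, 81 with quantile normalization, 108 with edgeR's TMM on recovered reads, and 34 to 84 when 1 library was left out. The lowered ones numbered 36, 46, 40 and 6 to 26. Over all peaks, the raised ones numbered 14471, 12782, 15969 and 6082 to 13641 in the same order. The lowered ones over all peaks numbered 10148, 12211, 11521 and 2441 to 8017, so the counts moved over the whole table as well. Genes called in summed tags numbered 6, 5 and 6 under those 3 scalings. Genes with a called distal minus promoter difference numbered 1 to 4 when 1 library was left out and 2 without the lowest-share library of each group. Directions reversed as follows, and the cause was not tested. The Mef2a sum became 0.05 with edgeR. The Mef2c sum became 0.07 with median-ratio scaling, 0.14 with edgeR and 0.17 without the lowest-share libraries. The Sall1 difference became 0.22 with promoters within 1 kb and 0.11 without the lowest-share libraries. The Zeb2 difference became 0.01 with median-ratio scaling, 0.03 with pseudocount 20, 0.05 within 100 kb, 0.15 with promoters within 1 kb and 0.03 without the lowest-share libraries. The strongest distal peak of Sall3 became 0.02, 0.06 and 0.05 under the 3 scalings and 0.06 without the lowest-share libraries, and that of Ikzf1 became 0 with quantile normalization. Leaving out 1 library gave sums of -0.05 to 0.20 for Spi1, -0.24 to 0.12 for Mef2a, -0.23 to 0.26 for Mef2c and -0.03 to 0.35 for Ikzf1. It gave differences of -0.18 to 0.02 for Sall1 and -0.04 to 0.05 for Zeb2. It gave strongest distal peaks of -0.22 to 0.13 for Sall3, -0.39 to 0.01 for Mef2a and -0.34 to 0.03 for Ikzf1, and a strongest promoter peak of -0.50 to 0.01 for Mef2c. No paired analysis was possible because the columns name the group and not the mouse, and the mouse numbers in the labels are not shared between groups.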

Other observations

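The gene whose scaled sums were most alike to each member over the 8 libraries (Pearson, description only, 16385 genes compared, libraries shared) was Sh3gl1 for Sall1 (0.999), Ehf for Sall3 (0.99), Spint1 for Spi1 (0.983), 2700070H01Rik for Mef2a (0.952), Celf2 for Mef2c (0.982), Irf8 for Runx1 (0.976), Zfp787 for Ikzf1 (0.985), 1700017D01Rik for Zeb2 (0.995) and Fam110a for Tal1 (0.99). In the deposited annotation, 5 distal peaks overlap a RefSeq promoter window of the same gene. The 2 at Sall1, listed at 0.5 and 1.3 kb, lie over another start than the assigned one. The 1 at Ikzf1 (0.1 kb) and the 2 at Zeb2 (0.2 kb) lie over a start at their listed distance. The strongest distal peak of Ikzf1, annotated to the 5' UTR, also lies only 0.3 kb from its start.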
